A study of Mus musculus with 12 samples.

Results

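The genes described here are the solute carrier (Slc) genes of mouse thymic CD4+ T cells, 238 of the 13207 genes in the deposited tables. A gene was taken if its symbol in either table was Slc followed by a digit, a rule that used no expression value and was set with earlier results of these data known. Solute carriers are membrane proteins that move nutrients, ions, metabolites and metals across the plasma membrane, organelle membranes and the inner mitochondrial membrane, mostly by facilitated diffusion or by coupling to an ion gradient, and they are numbered in families that largely follow substrate. In T cells they are best known for glucose uptake through Slc2a1 and Slc2a3, amino acid uptake through Slc1a5 and the Slc7a5/Slc3a2 pair, lactate exchange through Slc16a1 and Slc16a3 and nucleoside uptake through the Slc28 and Slc29 families. Slc9a3r1, Slc7a6os and Slc4a1ap carry such symbols for their binding partner or neighbour, are not transporters themselves, and were counted apart from the substrate classes. All 238 had a protein-coding entry in GENCODE vM21, and 216 stood in both tables, 5 in the first table alone and 17 in the second alone.

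The libraries were made from thymocytes of C57BL/6 mice injected with tamoxifen at 10 μg per g and killed 7 days after it. CD4+ cells were sorted by tdTomato, green fluorescent protein (GFP) and CD73, the ecto-5'-nucleotidase encoded by Nt5e. CD73+ regulatory T (Treg) cells were tdTomato+GFP+CD73+, CD73- Treg cells were tdTomato+GFP+CD73-, tdTomato- Treg cells were tdTomato-GFP+ and not divided by CD73, and conventional T cells (Tconv) were tdTomato+GFP-CD73-. Each group had 3 libraries with the letters A, B and D, and all 12 shared the strain, the tamoxifen dose and the day. The labels do not name the reporter or Cre alleles, the promoter behind Cre, the age of the mice, whether animals were pooled, or whether the libraries of a group came from separate mice, so the p-values below measure the spread between libraries, which may be partly technical. The tdTomato- Treg and Tconv groups differ at once in lineage, tdTomato label and CD73 gating, and these cannot be told apart in that comparison.

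Values are on the log2 CPM scale, where CPM is the count of a gene relative to the library's total. The first table held the CD73+ and CD73- Treg libraries, the second the tdTomato- Treg and Tconv libraries, and each was scaled on its own, so differences were tested within a table and levels across tables are only set side by side. The 0.5-count offset of the scale gave effective depths of 11000000 to 21400000 reads per library, at which 3 counts corresponded to -2.61 to -1.65 log2 CPM. Foxp3, the lineage factor of Treg cells, averaged 9.19, 9.16, 9.11 and 0.18 log2 CPM in CD73+ Treg, CD73- Treg, tdTomato- Treg and Tconv libraries, Nt5e averaged 7.29, 5.54, 8.21 and 3.88, and Cd4 averaged 8.42, 8.55, 8.44 and 9.28. Of the CPM summed in each library, Lars2 alone made up 28.5 to 30.2% in CD73+ Treg and 22.9 to 28.8% in CD73- Treg libraries, and 30.8 to 32.4% in tdTomato- Treg and 16.1 to 27.4% in Tconv libraries. The median SD within a group was 0.12 log2 CPM for 150 well-measured solute carriers and 0.12 for all 9342 genes at that level. In these bulk samples fewer cells of a type and less RNA per cell cannot be told apart.

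The solute carriers of highest transcript level per length were mitochondrial. Slc25a5, which encodes an ADP/ATP translocase of the inner mitochondrial membrane, averaged 96.4, 90.2, 84.5 and 127 CPM per kb of exon in CD73+ Treg, CD73- Treg, tdTomato- Treg and Tconv libraries. Slc25a3, the mitochondrial phosphate carrier, followed with 47.5, 46.5, 49.1 and 41.5 CPM per kb in the same order of groups. Among the next were Slc44a2, a choline transporter-like protein, the glutamine and alanine transporter Slc38a2, the purine nucleoside transporter Slc28a2 and the glutamine transporter Slc1a5. By class, the median level over the 4 groups was 4.87 CPM per kb for the 40 mitochondrial carriers listed in both tables, against 4.44 for 22 Slc35 genes, 3.91 for 24 metal and haem transporters, 2.6 for 33 amino acid and peptide transporters and 1.46 for 32 transporters of inorganic ions. The glucose transporter of highest level per length was Slc2a3, at 11.7, 10.9, 13.3 and 6.59 CPM per kb, above Slc2a1 at 5.89, 5.69, 7.75 and 5.32. Among the nucleoside and nucleobase transporters Slc28a2 stood far above the equilibrative transporters, at 24, 23.9, 30.6 and 18.6 CPM per kb, while Slc29a3 of lysosomes lay at 8.61, 8.54, 8.08 and 8.39 and Slc29a1 of the plasma membrane at 3.33, 2.58, 4.33 and 4.01.

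**Figure D1:**
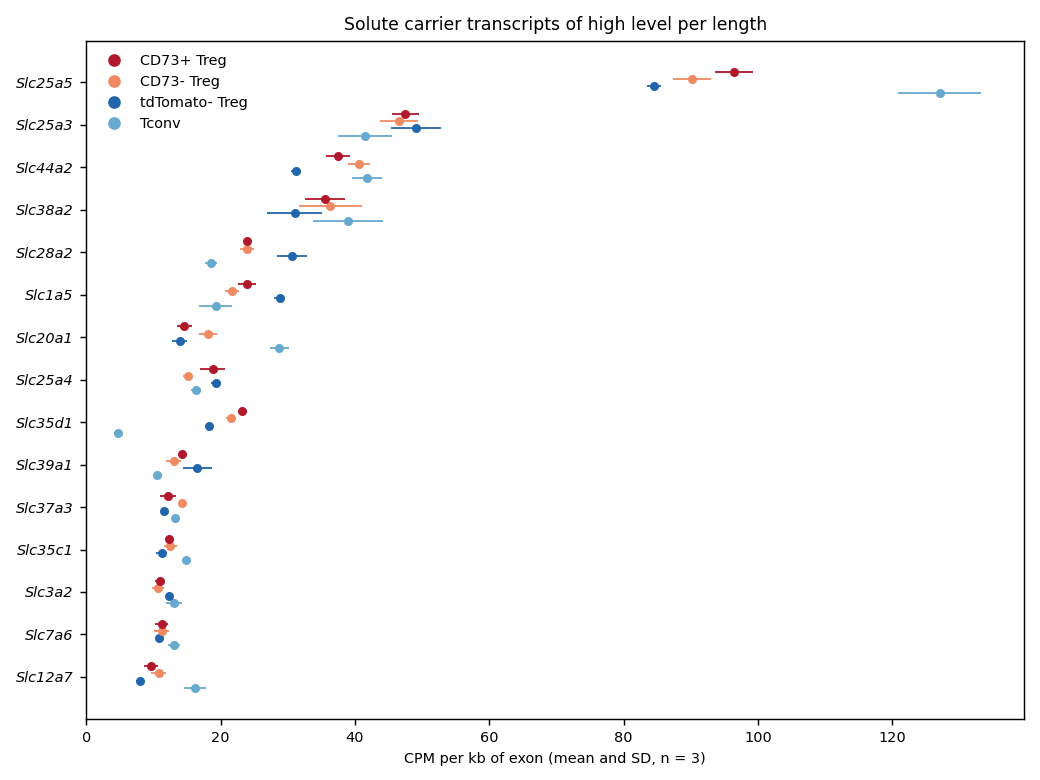
Transcript level per length, in CPM per kb of exon, of solute carriers named in the text that were among the 25 of highest level over the 4 groups. Points are group means and bars SDs of 3 libraries, and the 2 tables behind the groups were scaled separately. Slc25a5 lies apart from the others shown in all 4 groups, and Slc35d1 is at 18.2 to 23.2 CPM per kb in the 3 Treg groups and at 4.79 in Tconv.

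The first comparison asked which solute carriers differed between newly labelled Treg cells with and without CD73. Few did. Of 188 genes tested, 3 were higher and 1 was lower in CD73+ Treg than in CD73- Treg libraries at a limma adjusted p under 0.05, 2.13% of those tested, while 2.44% of all 11170 genes tested passed in either direction (1.79% higher and 0.654% lower). The median log2 fold change was 0.03 over the solute carriers and 0.007 over all genes, and 39 of the 188 (20.7%) had an unadjusted p under 0.05, beside 1919 of all 11170 (17.2%). Together the solute carriers made up 0.647 to 0.659% of the summed CPM in CD73+ Treg libraries and 0.662 to 0.69% in CD73- Treg libraries. The 4 genes were an amino acid transporter, a urea transporter, a carnitine transporter and a phosphate transporter.

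Slc36a4, a proton-independent transporter of amino acids such as tryptophan and proline (chr9:15709738-15743361, plus strand, mm10), had 4.63, 4.90 and 4.56 log2 CPM in CD73+ Treg libraries and 4.04, 4.36 and 4.18 log2 CPM in CD73- Treg libraries. Slc14a1, a urea transporter (chr18:78100091-78142119, minus strand), had 5.75, 5.71 and 5.59 log2 CPM in CD73+ Treg libraries and 5.43, 5.35 and 5.27 in CD73- Treg libraries. Slc22a5, the sodium-dependent carnitine transporter that supplies carnitine for fatty acid import into mitochondria (chr11:53864542-53891660, minus strand), had 4.20, 4.33 and 4.27 log2 CPM in CD73+ Treg libraries and 3.80, 3.88 and 3.73 in CD73- Treg libraries. For all 3 every CD73+ Treg library lay above every CD73- Treg library. Over all genes, 273 of the 273 called in this comparison (100%) had groups that did not overlap. Slc36a4 rose by 0.50 on the log2 scale (SE 0.11, limma adjusted p = 0.022), Slc14a1 by 0.33 (SE 0.08, limma adjusted p = 0.03) and Slc22a5 by 0.46 (SE 0.11, limma adjusted p = 0.038).

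Slc20a1, a sodium-phosphate cotransporter of the plasma membrane (chr2:129198764-129211616, plus strand), was the gene that fell. It had 6.34, 6.25 and 6.46 log2 CPM in CD73+ Treg libraries and 6.74, 6.53 and 6.70 log2 CPM in CD73- Treg libraries. The groups did not overlap, as for all 273 genes called in this comparison, and the log2 fold change was -0.31 (SE 0.07, limma adjusted p = 0.04). Exons of Slc20a1 share 732 bases with genes on the opposite strand, and since the strand setting of the counting is not given in the sources used here, reads of these genes cannot be told apart.

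These 4 calls were close to the threshold. In the authors' deposited table the same 4 genes had the smallest adjusted p-values of the solute carriers in this comparison, 0.066 for Slc14a1, 0.068 for Slc20a1, 0.073 for Slc36a4 and 0.083 for Slc22a5, and none passed 0.05. All 4 were lost without CD73+ Treg library A (28 of 188 solute carriers at an unadjusted p under 0.05 in limma), without CD73+ Treg library B or without CD73- Treg library D (33 of 188). Leaving out CD73- Treg library A left Slc14a1 as the only call, and leaving out CD73+ Treg library B called Slc5a9, a sugar transporter of low level, at -2.79 (limma adjusted p = 0.037). Without CD73+ Treg library D Slc22a5 was lost with a limma adjusted p of 0.0769, while Slc25a4 and Slc37a3 were gained. With the library letter as a block, 5 genes were higher and 4 lower: the 4 above, Slc25a4 (0.31, limma adjusted p = 0.012) and Slc38a1 (0.21, adjusted p = 0.022) higher, and Slc25a23 (-0.25, adjusted p = 0.021), Slc37a3 (-0.23, adjusted p = 0.036) and Slc5a9 (-2.27, adjusted p = 0.038) lower. These 9 block calls were 4.79% of the solute carriers tested, beside 5.64% of all 11170 genes tested. After quantile normalisation 2 genes were higher and 2 lower, a split of 50% higher in place of 75%. Markers of CD8 or double-positive thymocytes, all 4 of which were listed and none at the lowest value throughout a group, summed to 11.2 to 17.9 CPM in CD73+ Treg libraries and 17.6 to 46.1 CPM in CD73- Treg libraries, and their part in these results was not tested.

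The transporters best known from activated T cells did not pass the threshold between CD73+ and CD73- Treg cells. Slc2a1 had a log2 fold change of 0.05 (limma adjusted p = 0.83), Slc2a3 of 0.10 (0.61), Slc7a5 of 0.17 (0.33), Slc3a2 of 0.05 (0.83) and Slc1a5 of 0.14 (0.38). The adenosine-handling transporters, which meet the product of CD73, did not pass either. Slc29a1 had 3.79, 3.6 and 3.82 log2 CPM in CD73+ Treg libraries and 3.50, 3.21 and 3.39 in CD73- Treg libraries, and these values did not overlap, yet the log2 fold change of 0.37 had a limma adjusted p of 0.14. Slc28a2 had 6.63, 6.67 and 6.67 log2 CPM in CD73+ Treg libraries and 6.58, 6.70 and 6.67 in CD73- Treg libraries, with overlapping values and a log2 fold change of 0.01 (adjusted p = 0.97).

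RefSeq promoters of GRCm38.p6, from 250 bases before to 50 after the annotated start, are printed for 3 of these 4 genes because they are the calls of the first comparison, and for Slc16a3 and Slc15a1 because they were among the largest changes in opposite directions in the second. Each is written 5' to 3' on the strand of the gene in lower case, with capitals for CACGTG, the palindromic E-box bound by basic helix-loop-helix leucine zipper factors. The windows are chr9:15709488-15709787 (plus) for Slc36a4, chr11:53891654-53891953 (minus) for Slc22a5, chr2:129198523-129198822 (plus) for Slc20a1, chr11:120948817-120949116 (plus) for Slc16a3 and chr14:121505205-121505504 (minus) for Slc15a1.
Slc36a4: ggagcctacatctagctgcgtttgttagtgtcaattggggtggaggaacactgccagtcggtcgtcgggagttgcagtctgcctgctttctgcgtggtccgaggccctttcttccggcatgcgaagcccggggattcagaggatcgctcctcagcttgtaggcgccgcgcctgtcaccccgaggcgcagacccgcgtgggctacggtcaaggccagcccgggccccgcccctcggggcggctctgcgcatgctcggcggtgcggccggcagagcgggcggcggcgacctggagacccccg
Slc22a5: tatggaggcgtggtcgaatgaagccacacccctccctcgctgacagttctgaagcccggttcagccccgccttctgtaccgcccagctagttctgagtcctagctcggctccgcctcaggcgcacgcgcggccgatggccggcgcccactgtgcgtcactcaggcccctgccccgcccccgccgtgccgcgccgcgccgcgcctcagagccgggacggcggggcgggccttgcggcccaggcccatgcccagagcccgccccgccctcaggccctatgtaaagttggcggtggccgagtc
Slc20a1: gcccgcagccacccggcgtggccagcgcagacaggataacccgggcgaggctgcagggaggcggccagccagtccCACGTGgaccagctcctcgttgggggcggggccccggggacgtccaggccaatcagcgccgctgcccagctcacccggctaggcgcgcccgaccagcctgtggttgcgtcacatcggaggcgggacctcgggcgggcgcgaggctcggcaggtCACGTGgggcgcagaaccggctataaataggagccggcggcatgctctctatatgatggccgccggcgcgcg
Slc16a3: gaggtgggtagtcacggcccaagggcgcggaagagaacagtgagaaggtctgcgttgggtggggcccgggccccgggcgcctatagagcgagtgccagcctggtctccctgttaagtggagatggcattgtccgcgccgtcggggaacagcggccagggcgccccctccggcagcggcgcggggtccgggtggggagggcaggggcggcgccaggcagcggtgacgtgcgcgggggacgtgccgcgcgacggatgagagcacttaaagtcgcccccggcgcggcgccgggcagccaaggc
Slc15a1: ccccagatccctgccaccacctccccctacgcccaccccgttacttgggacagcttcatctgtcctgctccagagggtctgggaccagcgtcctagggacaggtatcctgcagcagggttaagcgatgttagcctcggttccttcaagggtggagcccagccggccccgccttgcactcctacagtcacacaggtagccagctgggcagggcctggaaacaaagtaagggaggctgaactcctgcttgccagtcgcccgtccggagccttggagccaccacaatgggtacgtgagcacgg
The Slc20a1 window held CACGTG at 2 places, and the other 4 windows held none of the 5 motifs searched. The windows of Slc36a4, Slc22a5, Slc20a1 and Slc16a3 were 69, 72.7, 73 and 73.3% G and C with 32 to 36 CpG, and that of Slc15a1 was 62.7% G and C with 12 CpG. The RefSeq start of Slc16a3 lay 587 bases from the GENCODE start of the gene, and those of the other 4 within 43 bases.

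The second comparison set tdTomato- Treg cells against Tconv cells. Here 68 solute carriers were higher and 42 lower in tdTomato- Treg libraries among 189 tested, 58.2%, beside 52.1% of all 11198 genes tested (26.4% higher and 25.7% lower). The share of solute carriers called was thus near the background share. Their median log2 fold change was 0.12, against -0.007 over all genes. Of the 110 genes called, 106 (96.4%) had groups that did not overlap, and so did 97.4% of the 5834 genes called over all genes. A change of more than 2-fold was seen in 38 of the 110 (34.5%), 31 of them higher and 7 lower in tdTomato- Treg cells, and in 1715 (29.4%) of the 5834, 1246 higher and 469 lower. Together the solute carriers made up 0.634 to 0.653% of the summed CPM in tdTomato- Treg libraries and 0.672 to 0.722% in Tconv libraries, so that every tdTomato- Treg library lay below every Tconv library while more of the genes were called higher than lower. The share of Lars2 lay the other way round in these groups, and its part in these counts was not tested. After quantile normalisation the counts were 56 higher and 50 lower, a split of 52.8% higher in place of 61.8%, and the medians were -0.01 for the solute carriers and -0.09 for all genes.

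**Figure D2:**
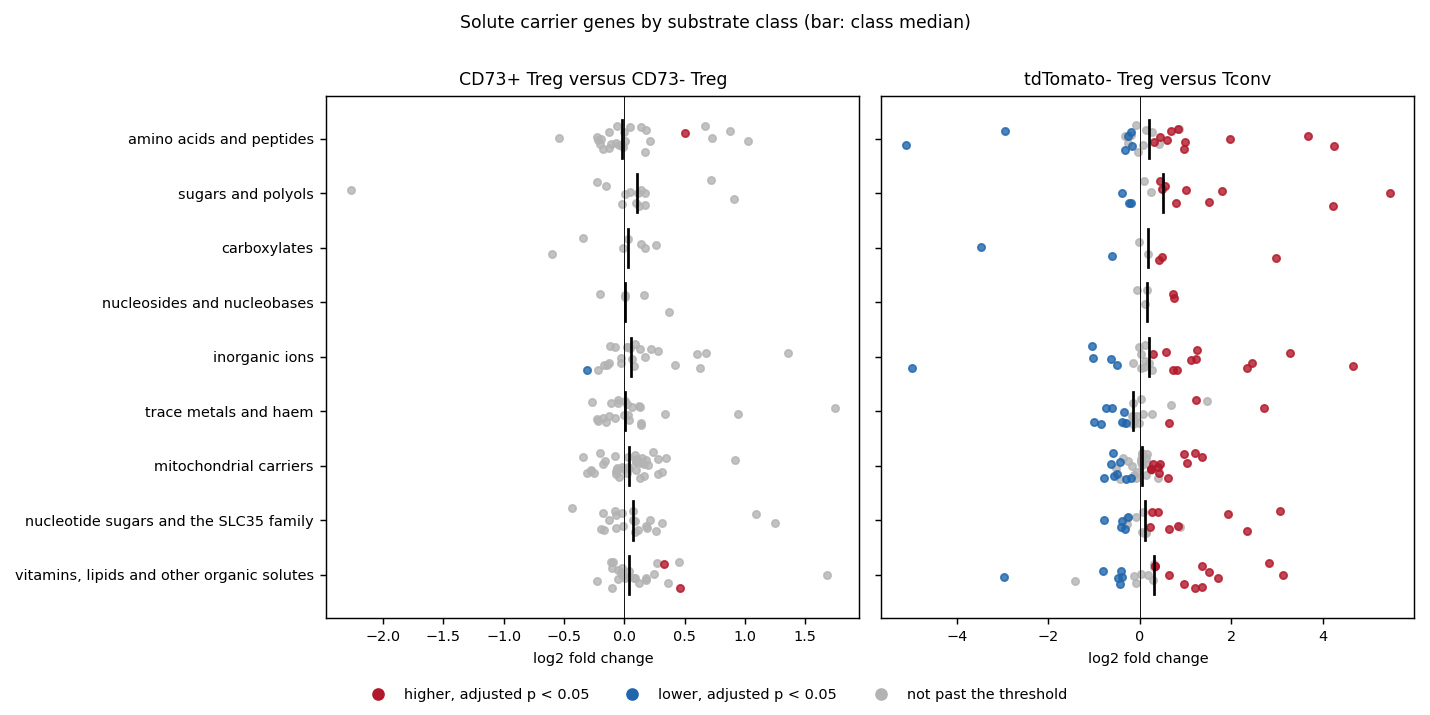
Log2 fold change of each tested solute carrier by substrate class, for CD73+ against CD73- Treg and for tdTomato- Treg against Tconv. Each point is a gene, with colour for genes past a limma adjusted p of 0.05 and a bar at the class median. In the second comparison the median lies at 0.51 for sugars and polyols and at -0.15 for trace metals and haem, and in the first every class median lies between -0.02 and 0.10.

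Of 14 sugar and polyol transporters tested, 9 were higher and 3 lower in tdTomato- Treg cells, 85.7% beside 52.1% of all genes. Their median log2 fold change was 0.51. Slc2a3, the high-affinity neuronal-type glucose transporter that T cells also use, had 6.47, 6.59 and 6.69 log2 CPM in tdTomato- Treg libraries and 5.43, 5.76 and 5.52 log2 CPM in Tconv libraries. Slc2a1, the glucose transporter induced on T-cell activation, had 4.67, 4.90 and 4.71 log2 CPM in tdTomato- Treg libraries and 4.14, 4.23 and 4.29 log2 CPM in Tconv libraries. Neither overlapped, and the log2 fold changes were 1.01 (SE 0.09, limma adjusted p = 6e-08) for Slc2a3 and 0.54 (SE 0.09, limma adjusted p = 0.00013) for Slc2a1. The sodium/myo-inositol cotransporter Slc5a3 rose by 0.48 and Slc45a4, assigned here to sugars by its family, by 0.79. Slc2a13, a proton/myo-inositol cotransporter, had -0.37, 0.41 and 0.66 log2 CPM in tdTomato- Treg libraries and stood at the lowest value, a count of 0, in all 3 Tconv libraries. Against a limit of 3 counts per library its mean CPM was at least 6.97-fold higher in tdTomato- Treg libraries. Slc2a13 passed the filter on low values only through Treg libraries, where it was higher. The 3 genes that fell were of the Slc37 family of sugar-phosphate exchangers, by 0.24 (Slc37a1), 0.40 (Slc37a2) and 0.19 (Slc37a3), and each of these calls was lost without tdTomato- Treg library A or B or without Tconv library A or D. Exons of Slc37a1 share 964 bases with a gene on the opposite strand.

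Among 26 amino acid and peptide transporters tested, 10 were higher and 6 lower, 61.5% beside 52.1% of all genes. The median log2 fold change was 0.20. The system L members Slc43a1 and Slc43a2, which carry large neutral amino acids without a partner chain, both rose. Slc43a1 had 2.87, 3.15 and 2.88 log2 CPM in tdTomato- Treg libraries and -0.09, -0.77 and -1.26 log2 CPM in Tconv libraries, a log2 fold change of 3.67 (SE 0.26, limma adjusted p = 2.9e-09). It passed the filter on low values only through Treg libraries, where it was higher. Slc43a2 had 6.91, 7.02 and 6.99 log2 CPM in tdTomato- Treg libraries and 6.17, 6.10 and 6.13 in Tconv libraries, a log2 fold change of 0.84 (SE 0.06, limma adjusted p = 1.4e-09). Exons of Slc43a2 share 922 bases with a gene on the opposite strand. Slc7a5, also of system L, did not pass the threshold: it had 5.04, 5.07 and 4.99 log2 CPM in tdTomato- Treg libraries and 5.07, 4.74 and 4.88 in Tconv libraries, which overlapped, at 0.14 (limma adjusted p = 0.21). Its heavy chain Slc3a2 stood at -0.09 (adjusted p = 0.41). Slc1a5, the sodium-dependent glutamine transporter, had 6.87, 6.91 and 6.95 log2 CPM in tdTomato- Treg libraries and 6.36, 6.12 and 6.49 in Tconv libraries, and rose by 0.59 (SE 0.08, limma adjusted p = 8.3e-06).

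The peptide transporter Slc15a1 and the aromatic amino acid transporter Slc16a10 gave the largest falls of the class. Of the other Slc15 genes, Slc15a2 and Slc15a3 rose, by 0.96 and 4.25, and Slc15a4 was not past the threshold. Slc15a1, the proton-coupled transporter of di- and tripeptides of the intestine (chr14:121459621-121505252, minus strand), had -0.68, -1.04 and -0.62 log2 CPM in tdTomato- Treg libraries and 4.17, 4.57 and 4.29 log2 CPM in Tconv libraries. Its log2 fold change was -5.12 (SE 0.40, limma adjusted p = 1.1e-08), and the CD73+ Treg libraries (-2.15, -0.70 and -0.79) and CD73- Treg libraries (-1.11, -0.36 and -0.55) lay near the tdTomato- Treg values. Slc15a1 reached log2 CPM 0 in Tconv libraries alone and so passed the filter only through the group where it was high. Slc16a10, the transporter of aromatic amino acids, had 2.33, 2.40 and 2.42 log2 CPM in tdTomato- Treg libraries and 5.11, 5.58 and 5.29 log2 CPM in Tconv libraries, a log2 fold change of -2.94 (SE 0.22, limma adjusted p = 7.9e-09). For both genes every library of tdTomato- Treg lay far below every Tconv library. Of the remaining falls, the cationic amino acid transporters Slc7a1 and Slc7a6 were at -0.19 and -0.25 and the glutamine transporters Slc38a1 and Slc38a2 at -0.17 and -0.33. These 4 calls rested on single libraries: Slc7a1 and Slc38a2 were lost without tdTomato- Treg library B or Tconv library D, Slc38a1 without tdTomato- Treg library A or B or Tconv library B, and Slc7a6 without tdTomato- Treg library A or Tconv library A or B.

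Slc15a2, the high-affinity relative of Slc15a1, varied with the library letter as well as with the groups. It had 5.92, 4.99 and 6.02 log2 CPM in libraries A, B and D of CD73+ Treg, 6.11, 4.95 and 6.08 in CD73- Treg, 5.92, 5.10 and 6.03 in tdTomato- Treg and 4.97, 4.16 and 5.03 in Tconv. Library B was the lowest in all 4 groups, on average 0.96 below the mean of the other libraries of its group and by at least 0.84 in each. No other well-measured solute carrier had a letter that deviated on average by more than 0.35 in the same direction in all 4 groups. Its log2 fold change in tdTomato- Treg cells against Tconv cells was 0.96 (SE 0.33, limma adjusted p = 0.021) and, with the letter as a block, 0.96 (SE 0.07, limma adjusted p = 1.8e-09). Without the block the call was lost without tdTomato- Treg library A or D or Tconv library B.

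Of the 7 carboxylate transporters tested, 3 were higher and 2 lower, 71.4% beside 52.1% of all genes. The monocarboxylate family was split. Slc16a3, the lactate exporter of glycolytic cells (chr11:120948480-120960868, plus strand), had 3.67, 3.68 and 3.57 log2 CPM in tdTomato- Treg libraries and 0.65, 0.51 and 0.81 log2 CPM in Tconv libraries, a log2 fold change of 2.98 (SE 0.15, limma adjusted p = 2.9e-11). The CD73+ Treg libraries (3.99, 3.89 and 3.92) and the CD73- Treg libraries (3.92, 3.52 and 3.58) stood at the level of the tdTomato- Treg libraries on their own scale. Slc16a1, the higher-affinity lactate and pyruvate transporter, had 4.71, 4.43 and 4.67 log2 CPM in tdTomato- Treg libraries and 5.26, 5.20 and 5.15 in Tconv libraries, and fell by 0.60 (SE 0.09, limma adjusted p = 4.9e-05). Slc16a5, a monocarboxylate family member also known for drug transport, had 0.44, 0.78 and 0.87 log2 CPM in tdTomato- Treg libraries and 4.25, 4.33 and 3.94 log2 CPM in Tconv libraries, a log2 fold change of -3.48 (SE 0.24, limma adjusted p = 3.1e-09). Its exons share 104 bases with a gene on the opposite strand. The vesicular nucleotide transporter Slc17a9 rose by 0.48 and the lysosomal sialic acid exporter Slc17a5 by 0.41, a call lost after quantile normalisation (limma adjusted p = 0.0571) and without the 4 libraries of letter D (limma adjusted p = 0.0961).

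**Figure D3:**
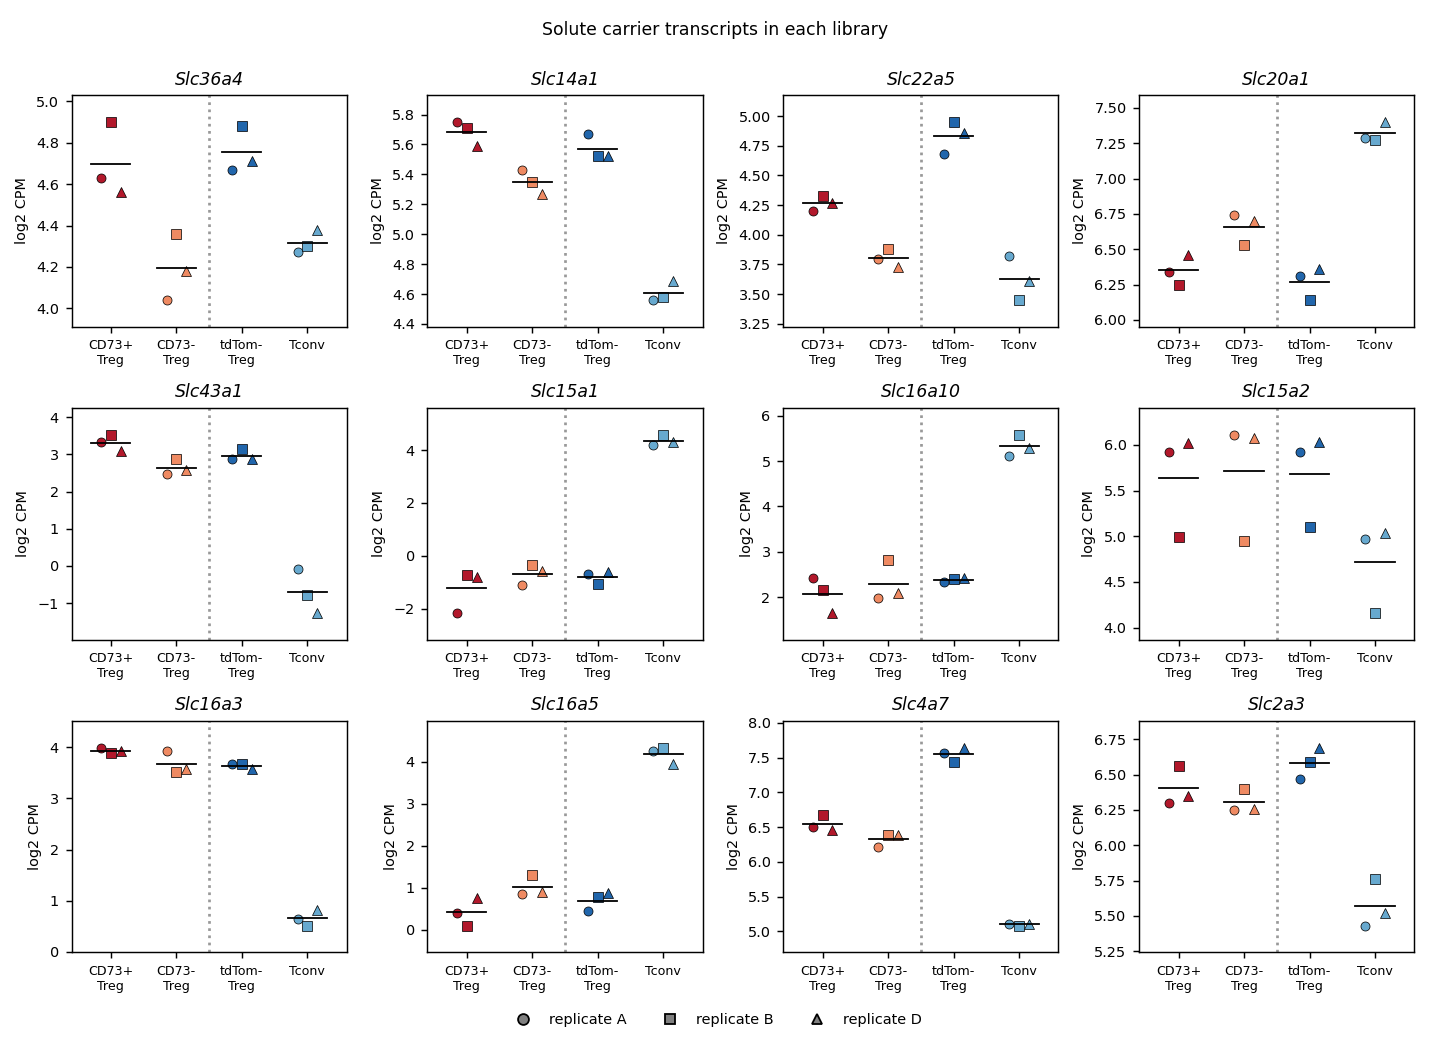
Log2 CPM of 12 solute carriers in each of the 12 libraries, by group, with a line at the group mean.  The dotted line parts the tables, which were scaled separately, and tdTom- stands for tdTomato-. Slc16a3 and Slc43a1 lie higher in the Treg libraries than in the Tconv libraries, Slc15a1, Slc16a10 and Slc16a5 lie lower, and replicate B of Slc15a2 is the lowest in every group.

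Nucleoside transport was represented by 5 tested genes, of which 2 were higher and none was lower in limma (2 of the 5 had an unadjusted p under 0.05). Calls made up 40% of the class, beside 52.1% of all genes. Slc28a2, which concentrates purine nucleosides with sodium, had 6.99, 6.91 and 7.12 log2 CPM in tdTomato- Treg libraries and 6.36, 6.22 and 6.29 log2 CPM in Tconv libraries, and rose by 0.72 (SE 0.06, limma adjusted p = 4.3e-08). The purine nucleobase transporter Slc43a3 had 3.52, 3.27 and 3.64 log2 CPM in tdTomato- Treg libraries and 2.40, 2.94 and 2.85 in Tconv libraries, and rose by 0.75 (SE 0.20, limma adjusted p = 0.0051), a call lost without the 4 libraries of letter D (limma adjusted p = 0.0513). The equilibrative transporters did not pass, with log2 fold changes of 0.12 for Slc29a1 (adjusted p = 0.44), 0.15 for Slc29a2 (0.75) and -0.06 for Slc29a3 (0.61).

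Transporters of inorganic ions held several of the largest changes. Of 25 tested, 11 were higher and 5 lower, 64% beside 52.1% of all genes, with a median of 0.19. Slc4a7, a sodium-bicarbonate cotransporter that loads the cell with base (chr14:14702279-14799940, plus strand), had the smallest p of all solute carriers named here. It had 7.56, 7.43 and 7.64 log2 CPM in tdTomato- Treg libraries and 5.11, 5.08 and 5.11 log2 CPM in Tconv libraries, a log2 fold change of 2.44 (SE 0.07, limma adjusted p = 3.2e-14), while CD73+ Treg libraries had 6.5, 6.67 and 6.46 and CD73- Treg libraries 6.21, 6.38 and 6.38. Slc4a8, which exchanges chloride for sodium and bicarbonate, had 5.26, 5.12 and 5.32 log2 CPM in tdTomato- Treg libraries and 2.87, 2.76 and 3.02 in Tconv libraries, at 2.35 (SE 0.12, limma adjusted p = 7.8e-11). Slc9a7, a sodium/proton exchanger of the trans-Golgi network, had 3.82, 4.01 and 3.71 log2 CPM in tdTomato- Treg libraries and 0.54, 0.47 and 0.72 in Tconv libraries, with a log2 fold change of 3.27. These 3 genes all belong to acid-base transport, and their groups lay far apart. Another exchanger of the family, the endosomal Slc9a9, fell by 0.64 (limma adjusted p = 6.4e-06).

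The chloride cotransporters named here moved in opposite directions. The sodium-potassium-chloride cotransporter Slc12a2 rose by 1.22, while the potassium-chloride cotransporter Slc12a7, with 6.77, 6.58 and 6.63 log2 CPM in tdTomato- Treg libraries and 7.78, 7.51 and 7.75 in Tconv libraries, fell by 1.02 (SE 0.09, limma adjusted p = 7.4e-08). The sulfate transporter Slc26a2 rose by 1.11 and the magnesium transporter Slc41a1 by 0.72. Slc20a1, the phosphate transporter, had 6.31, 6.14 and 6.36 log2 CPM in tdTomato- Treg libraries and 7.29, 7.27 and 7.40 log2 CPM in Tconv libraries, and fell by 1.05 (SE 0.07, limma adjusted p = 3.7e-09).

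Metal and haem transporters were the class with the lowest median, -0.15. Of 23 tested, 3 were higher and 7 lower, 43.5% beside 52.1% of all genes. The falls were zinc transporters of both directions of transport. Slc30a4, which moves zinc into vesicles, had 4.04, 4.07 and 4.04 log2 CPM in tdTomato- Treg libraries and 5.0, 5.03 and 5.13 in Tconv libraries, and fell by 1.0 (SE 0.09, limma adjusted p = 1.1e-07). The zinc importers Slc39a6, Slc39a14 and Slc39a11 fell by 0.85, 0.73 and 0.62. The zinc importers Slc39a4, Slc39a13 and Slc39a1 rose by 2.72, 1.23 and 0.63, of which Slc39a1 had the highest level per length, at 16.5 CPM per kb in tdTomato- Treg libraries and 10.6 CPM per kb in Tconv libraries. The iron importer Slc11a2 stood at -0.18 (limma adjusted p = 0.12, and 0.0391 without Tconv library B) and the zinc exporter Slc30a1 at -0.15 (0.29).

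The mitochondrial carriers changed in both directions, with 11 higher and 8 lower among 39 tested and a median of 0.05. Calls made up 48.7% of the class, beside 52.1% of all genes. The ADP/ATP translocases went opposite ways: Slc25a5, with 7.13, 7.13 and 7.10 log2 CPM in tdTomato- Treg libraries and 7.64, 7.78 and 7.71 log2 CPM in Tconv libraries, fell by 0.59 (SE 0.05, limma adjusted p = 3.5e-08), and Slc25a4, with 5.5, 5.56 and 5.45 log2 CPM in tdTomato- Treg libraries and 5.23, 5.34 and 5.22 in Tconv libraries, rose by 0.24 (SE 0.08, limma adjusted p = 0.019), a call lost without tdTomato- Treg library B or Tconv library A or D. The calcium-regulated ATP-magnesium/phosphate carriers also split. Slc25a24 had 4.68, 4.44 and 4.81 log2 CPM in tdTomato- Treg libraries and 3.21, 3.46 and 3.20 in Tconv libraries and rose by 1.35 (SE 0.12, limma adjusted p = 7.8e-08), and Slc25a23 had 5.15, 5.09 and 5.16 in tdTomato- Treg libraries and 5.96, 5.88 and 5.89 in Tconv libraries and fell by 0.78 (SE 0.07, limma adjusted p = 3.4e-08). The ornithine carrier Slc25a15 fell by 0.63 and the aspartate-glutamate carrier Slc25a12 fell by 0.43.

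Of the 22 Slc35 genes, most of which carry nucleotide sugars into the endoplasmic reticulum and Golgi, 8 were higher and 5 lower. Calls made up 59.1%, beside 52.1% of all genes, and the median was 0.11. Slc35d1, which carries UDP-glucuronic acid and UDP-N-acetylgalactosamine into the endoplasmic reticulum, had 7.30, 7.27 and 7.26 log2 CPM in tdTomato- Treg libraries and 5.48, 5.10 and 5.45 log2 CPM in Tconv libraries, a log2 fold change of 1.93 (SE 0.08, limma adjusted p = 1.8e-12). In the other Treg groups it had 7.65, 7.59 and 7.64 (CD73+) and 7.57, 7.52 and 7.47 (CD73-). The PAPS transporter Slc35b2, needed for sulfation in the Golgi, rose by 0.84. The GDP-fucose transporter Slc35c1 fell by 0.41, and the CMP-sialic acid transporter Slc35a1 stood at -0.29 (limma adjusted p = 0.059, and 0.0196 after quantile normalisation).

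Vitamin, lipid and other organic solute transporters numbered 25 tested, 11 higher and 6 lower, with a median of 0.31. Calls made up 68% of the class, beside 52.1% of all genes. The genes called in the first comparison were again higher: Slc14a1, with 5.67, 5.52 and 5.52 log2 CPM in tdTomato- Treg libraries and 4.56, 4.58 and 4.69 in Tconv libraries, rose by 0.96 (SE 0.08, limma adjusted p = 1.5e-08), and Slc22a5, with 4.68, 4.95 and 4.86 log2 CPM in tdTomato- Treg libraries and 3.82, 3.45 and 3.61 in Tconv libraries, rose by 1.20 (SE 0.11, limma adjusted p = 1.1e-07). Others of the organic ion family rose as well, Slc22a15 by 1.71 and Slc22a17 by 1.51. The choline transporter-like Slc44a2, the member of this class with the highest level per length, fell by 0.42, the urate transporter Slc2a9 by 0.80 and the fatty acid transporter Slc27a1 by 0.44, the last of which was lost without tdTomato- Treg library A or Tconv library A or D. The reduced folate carrier Slc19a1 stood at 0.31 (limma adjusted p = 0.065, and 0.0459 without Tconv library D).

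Some changes in the second comparison rested on low counts. Slc1a3, a glutamate transporter, and Slc7a10, Slc11a1, Slc22a21 and Slc30a2 were at a count of 0 in all 3 Tconv libraries and did not pass the filter on low values. Against 3 counts per library the mean CPM in tdTomato- Treg libraries was at least 4.52-fold higher for Slc1a3 and 3.11-fold for Slc7a10. It was at least 2.05-fold higher for Slc11a1, 1.63-fold for Slc22a21 and 1.28-fold for Slc30a2. Slc11a1 and Slc22a21 each had 1 tdTomato- Treg library at or under 3 counts, so these bounds hold for means and not for each library. Slc12a8 of the chloride cotransporter family had 1.95, 2.36 and 2.04 log2 CPM in tdTomato- Treg libraries and -3.55, -1.72 and -2.36 log2 CPM in Tconv libraries. Slc22a2, an organic cation transporter, had 2.73, 2.81 and 2.11 log2 CPM in tdTomato- Treg libraries and -0.74, -1.02 and 0.04 in Tconv libraries. In the other direction Slc4a4, a sodium-bicarbonate cotransporter listed in the second table alone and fitted on its 6 libraries, had -4.77, -4.95 and -2.21 log2 CPM in tdTomato- Treg libraries, all at or under 3 counts, and 0.85, 1.35 and 0.81 log2 CPM in Tconv libraries. For Slc12a8, Slc22a2 and Slc4a4 the groups did not overlap, as for 97.4% of the genes called over all genes. Slc4a4 passed the filter only through Tconv libraries and Slc12a8 only through Treg libraries, where each was high. Slc15a3, a lysosomal peptide transporter well known from myeloid cells, had 1.92, 2.17 and 2.68 log2 CPM in tdTomato- Treg libraries and -1.96, -3.10 and -0.92 log2 CPM in Tconv libraries. It passed the filter only through Treg libraries, where it was higher. Of its 5491 exon bases, 1541 are shared with a gene on the opposite strand, whose reads cannot be told apart here. All 8 listed myeloid and dendritic cell markers together summed to 59.2 to 72.1 CPM in tdTomato- Treg libraries and 33.7 to 37.5 CPM in Tconv libraries. Of the 6 myeloid markers tested 4 were higher and 1 was lower, Itgam at -1.73 (limma adjusted p = 0.00068). In tdTomato- Treg and Tconv libraries the 4 B-cell markers summed to 6.02 to 7.6 and 2.39 to 3.36 CPM, and the 2 thymic epithelial markers that were listed to 5.63 to 7.69 and 2.45 to 2.81 CPM. The 5 erythroid markers listed, of 6, summed to 91 to 144 CPM in tdTomato- Treg libraries and 67.2 to 107 CPM in Tconv libraries, which overlapped, and 2 of the 5 tested were higher and none was lower in limma. The 4 markers of CD8 or double-positive thymocytes summed to 22 to 28.9 CPM in tdTomato- Treg libraries and 22.1 to 23.8 CPM in Tconv libraries, with Rag1 higher at 1.38 (limma adjusted p = 0.0088) and Cd8b1 lower at -0.89 (limma adjusted p = 0.00025). None of these markers was at the lowest value throughout a group. Their part in these results was not tested.

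The 2 comparisons share no libraries, so their values could be set side by side. All 4 genes called between CD73+ and CD73- Treg cells were called in the same direction between tdTomato- Treg and Tconv cells: Slc36a4 at 0.50 and 0.44 (limma adjusted p = 0.0029 in the second), Slc14a1 at 0.33 and 0.96, Slc22a5 at 0.46 and 1.20 and Slc20a1 at -0.31 and -1.05. Of all genes tested in the second comparison, 26.4% were called higher and 25.7% lower. The matching share among all genes called in the first comparison was not computed. Of the 68 solute carriers higher in tdTomato- Treg cells, 53 (77.9%) had a positive log2 fold change in CD73+ against CD73- Treg cells, and the share over all genes was 65.1%. Of the 41 lower in tdTomato- Treg cells and tested in both, 27 (65.9%) had a negative one, and the share over all genes was 60.2%. These shares describe signs, most of which were not past the threshold in the first comparison. On the scales as deposited, 109 of the solute carriers called in the second comparison were listed in both tables. The mean of CD73+ Treg lay nearer to tdTomato- Treg than to Tconv for 82 of them and the mean of CD73- Treg for 66. These levels cross separately scaled tables. The same shares over all genes were not computed, so whether the counts are particular to solute carriers is not known.

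**Figure D4:**
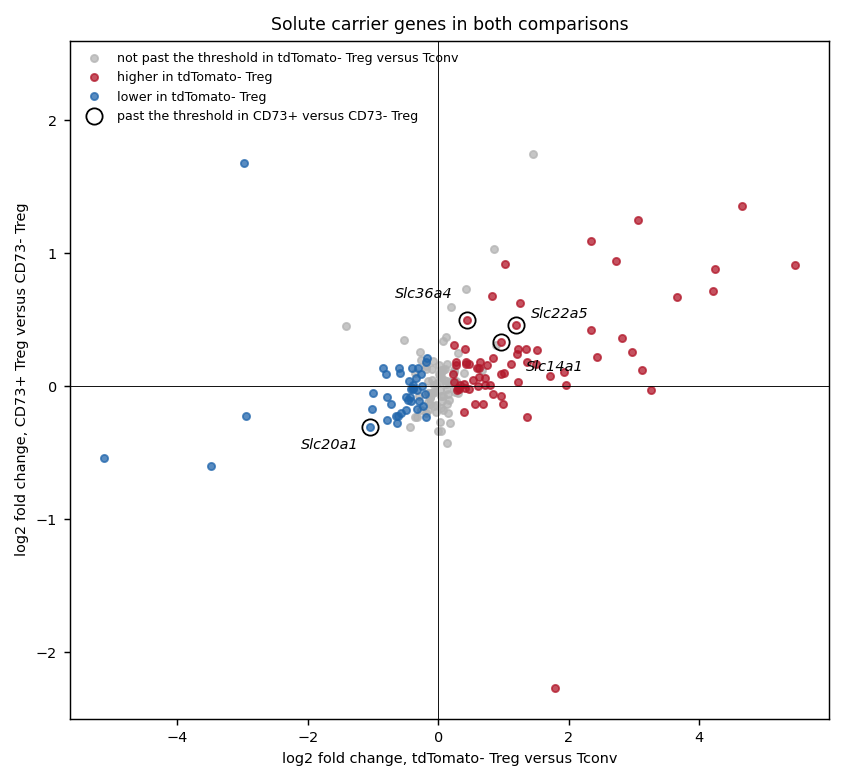
Log2 fold change of each solute carrier tested in both comparisons, tdTomato- Treg against Tconv on the horizontal axis and CD73+ against CD73- Treg on the vertical axis. Colour gives the call in the second comparison and a ring the 4 genes called in the first, of which Slc36a4, Slc14a1 and Slc22a5 lie at upper right and Slc20a1 at lower left.

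The partners of transport were read from a list of 36 genes for transporter chaperones, pumps, channels and nucleoside and amino acid sensing, of which 33 were tested. Between CD73+ and CD73- Treg cells 1 (3.03%) was higher and none was lower in limma, near the 2.44% of all genes. That gene was Adk, adenosine kinase, which phosphorylates adenosine after uptake, at 0.48 (SE 0.08, limma adjusted p = 0.0033). Between tdTomato- Treg and Tconv cells 8 were higher and 11 lower, 57.6%, near the 52.1% of all genes. Hexokinase 2 (Hk2) rose by 2.26 and Bsg, the chaperone of Slc16a1 and Slc16a3, by 0.48, while Emb, another chaperone of the Slc16 family, fell by 0.72. The adenosine receptor Adora2a rose by 2.44 and Adk by 0.40, while adenosine deaminase (Ada) fell by 0.74. The sodium pump beta subunits Atp1b1 and Atp1b3, parts of the pump that maintains the gradient used by sodium-coupled carriers, fell by 0.96 and 0.38, and Txnip, which drives internalisation of Slc2a1, fell by 0.33.

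RefSeq promoters were found for 181 of the 238 genes. Taking for each gene the promoter nearest to its GENCODE start, their median content of G and C was 61.7%, against 60.7% for 10325 genes of the deposited tables chosen the same way, and their median number of CpG was 18, against 20. Of 5 motifs searched on both strands, CACGTG was found in 22 of 181 (12.2%) and in 9.94% of the 10325. TTCNNNGAA, the STAT motif, was found in 6.63% and 6.93%, the forkhead motif TGTTTAC in 1.1% and 2.53%, the cyclic AMP response element TGACGTCA in 1.66% and 3.16%, and TGATGNAAT, a form of the amino acid response element, in 0.552% and 0.465%. No motif lies within another. By direction in tdTomato- Treg against Tconv cells, CACGTG was found in 3 of 51 promoters (5.88%) of genes that were higher and 6 of 31 (19.4%) of genes that were lower, Slc20a1 among them. TTCNNNGAA lay the other way, in 5 of 51 (9.8%) and 2 of 31 (6.45%). TGACGTCA was found in 1 of 51 and 0 of 31, and TGTTTAC and TGATGNAAT in none of either. The shares over all genes called in each direction were not computed, and these differences were not tested. These matches describe the letters in these windows. CACGTG itself holds a CpG, and the part of CpG content in these shares was not tested.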

How the data were processed

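Per the labels' protocols, TRIzol RNA was made into libraries with a KAPA RNA HyperPrep kit. The submitters' processing notes name STAR, RSEM and limma with the mm10 build, without versions, and give no strand setting. Log2 CPM values were deposited, with an offset read from the values as 0.5 counts, in 2 tables of 6 libraries that were scaled separately, and the authors' deposited tables add a log2 fold change, a p-value and a moderated t score per gene. Whole reads could not be recovered from the deposited log2 values, so no count test was run.

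The log2 values of all 12 libraries were fitted in limma 3.58.1 (R 4.3.3) with 4 group means and an intensity trend, for genes that reached log2 CPM 0 in 3 or more libraries. Each comparison was adjusted by Benjamini-Hochberg over all genes tested in it and called at an adjusted p under 0.05, two-sided. Genes listed in 1 table were fitted on its 6 libraries. The library letters A, B and D in the titles were taken as pairing: over 9342 genes, deviations from the group means correlated between libraries of the same letter at 0.17, 0.32 and 0.265 in the first comparison and at 0.13, 0.154 and 0.102 in the second. The fit with the letter as a block is an alternative.

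CPM per kb used the union of GENCODE vM21 exons (GRCm38, which is mm10), which assumes that all exons are expressed. Coordinates are those of GENCODE vM21 and promoters those of RefSeq. The 238 genes were matched by gene ID, 235 of them with the same version. Substrate classes were assigned by family number. The fit was tested on simulated data. The genes, classes and lists were chosen with earlier results of these data known. Genes were named if called in the first comparison, if among up to 4 higher and 4 lower per class in the second by fold change (called, not overlapping, mean log2 CPM of at least 1), if on a fixed list of well-known transporters, or if at the lowest value in a whole group. Slc5a9, Slc12a2, Slc12a8, Slc15a3, Slc22a2, Slc25a12, Slc26a2, Slc41a1 and Slc4a4 were named after their values were seen. Alternatives were no filter and a stricter filter, quantile normalisation, log2(CPM + 1), a fit of the 2 groups compared, no trend, the replicate block, leaving out letter D and leaving out each library. Values of a few of the named genes are not reported here.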

Additional observations from a re-analysis of the deposited data

How the results depend on the processing

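Between CD73+ and CD73- Treg cells, where 3 solute carriers were higher and 1 was lower, all calls were lost (0 higher, 0 lower) when limma was fitted to the 2 groups compared only (26 at an unadjusted p under 0.05), without the trend (36) and without the 4 libraries of letter D (24). With no filter on low values, after quantile normalisation and on log2(CPM + 1), 2 genes were lower in place of 1. The replicate block gave 5 higher and 4 lower, 4.79% of those tested, beside 5.64% of all genes tested. Leaving out 1 library at a time gave 0 to 4 higher and 0 to 2 lower. The limma adjusted p over the alternatives ran from 0.00364 to 0.136 for Slc36a4, 0.012 to 0.176 for Slc14a1, 0.0226 to 0.311 for Slc22a5 and 0.00173 to 0.178 for Slc20a1, and the direction of these 4 did not turn in any. Why the calls move was not tested, except that fewer libraries enter the fits without a library.

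Between tdTomato- Treg and Tconv cells the counts of 68 higher and 42 lower stayed within 1.5 times under every alternative run, and leaving out 1 library gave 55 to 64 higher and 30 to 39 lower. Of 69 named genes called, 52 were called in each of these alternatives that tested them and 17 were lost in some. None of the 69 turned direction. Slc15a1 was tested in 10 of 14 alternatives and Slc2a13 in 9. The replicate block changed the call of no named gene from past to not past the threshold. Slc15a2 was not past it without tdTomato- Treg library A or D, without Tconv library B, without letter D or without the trend, with a limma adjusted p of up to 0.107. Leaving out letter D also ended the calls of Slc7a1, Slc17a5, Slc25a4, Slc27a1, Slc37a1, Slc37a2, Slc37a3 and Slc43a3. The filter at log2 CPM 0 in 3 or more libraries left 49 of the 238 tested in neither comparison. Depth limits the solute carriers near 3 counts, a level below that filter. With 3 libraries a group of unstated origin, a difference that missed the threshold was not shown to be absent.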
